A study of Mus musculus with 6 samples.

Results

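The genes described here encode the machinery that sorts membrane proteins in endosomes: genes named Vps followed by a number, the Chmp genes, the sorting nexins (Snx), and Hgs, Stam, Stam2 and Tsg101. They were matched by symbol alone in the authors' deposited table of the mouse melanoma line B16.F10. This gave 60 genes with 97 transcripts, of 8513 genes with 15905 transcripts in all. The set itself was chosen with earlier results of these data known. The cells had been given 3.5 µM simvastatin for 24 h, the dose that the labels call the IC50 of the drug, and the controls were B16.F10 cells with no treatment at 24 h, for which no solvent is named. Each group held 3 samples of wild-type (WT) cells, described as biological replicates, with 1 batch date for all 6. B16.F10 is an established line of malignant melanocytic cells, grown as a monolayer with serum, and all 8 melanocyte markers looked up, among them Pmel, Dct, Mlana and Sox10, were listed in the table. Simvastatin blocks HMG-CoA reductase and so the synthesis of mevalonate, from which cells make cholesterol and the lipid anchors of small GTPases.

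Proteins taken up from the cell surface reach the early endosome, where they are either retrieved or broken down. Retromer, a trimer of VPS35, VPS26 and VPS29, and the sorting nexins pull cargo into tubules that return to the Golgi or the surface. The ESCRT complexes bind ubiquitinated cargo and bud it into the lumen of the endosome, and the HOPS and CORVET tethers bring endosomes together with each other and with lysosomes. In pigment cells the same tethers and sorting proteins also serve the melanosome, a lysosome-related organelle.

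For every transcript the table holds 1 value per group, whose unit was not given in the sources used here, with the authors' fold, p-value and adjusted p-value. No value per sample was used, so no SD, no range within a group and no overlap between the groups can be stated, and the depth of the samples is unknown. Levels are therefore compared between the 2 groups and not between genes. A gene total is the sum of the authors' values over the transcripts of a gene, and log2 ratios below are of simvastatin over control totals. All 60 genes are protein coding in GENCODE release M21. Vps72, a chromatin protein of histone exchange complexes, and Vps9d1, named for a domain of Rab activators, were matched by name alone and stand apart in the counts by complex. In RNA from whole cultures, less RNA per cell and fewer cells with that RNA cannot be told apart.

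Among the 97 transcripts, 1 was lower and 0 were higher at an adjusted p under 0.05 in the authors' deposited table, against 0.987% lower and 1.11% higher of all 15905 transcripts. The sources used here do not name the test behind these p-values. By the authors' own call, which allows a larger adjusted p and asks for a minimum fold, 4 were higher and 1 lower, that is 4.12% and 1.03% of the 97, where the table as a whole had 5.13% higher and 4.37% lower. At an unadjusted p under 0.05, 19 were higher (19.6%) and 6 lower (6.19%), beside 9.42% higher and 10.2% lower over all transcripts. At an adjusted p under 0.1, 8 were higher (8.25%) and 1 lower, beside 4.02% and 3.76%. Endosomal sorting transcripts were thus no more often past the threshold of 0.05 than the rest of the table, while among the weaker differences the higher side held more of them than the lower. Members share pathways and are not replicates of each other, so these shares are descriptions.

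Over gene totals, 48 of the 60 were above their control value and 12 below it, 80% higher and 20% lower, beside 51.7% higher and 48.3% lower of the 8505 genes with a ratio. The median log2 ratio was 0.22 over the 60 genes and 0.02 over all genes. Differences were small: 51 of the 60 genes lay within 0.5 of zero on the log2 scale, 9 were at 0.5 or more, and 0 were at -0.5 or less. Small differences were common in the whole table too. Over all genes the 25th and 75th percentiles were -0.32 and 0.35, and the 5th and 95th were -0.96 and 1.03. Of the 9 genes at 0.5 or more, Snx32, Vps13d and Vps9d1 had mean totals under 5. Summed, the 60 genes had 1450 with simvastatin and 1253 in control, a difference of 15.7%, whereas the sum over all transcripts with simvastatin was 0.872 times that in control. The 8 melanocyte markers, of which 7 had higher totals with simvastatin and none a transcript past the threshold, had a median log2 ratio of 0.21, and their part in the ratios above was not tested. Setting both groups to the same sum adds 0.20 to every log2 ratio, and the split of the 60 then becomes 55 higher and 5 lower, beside 66.1% higher over all genes, as Chmp6, Snx3, Snx7, Snx22, Snx33, Vps53 and Vps54 turn round. The 5 genes below control under either scaling were Snx8, Snx17, Tsg101, Vps37b and Vps72.

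**Figure D1:**
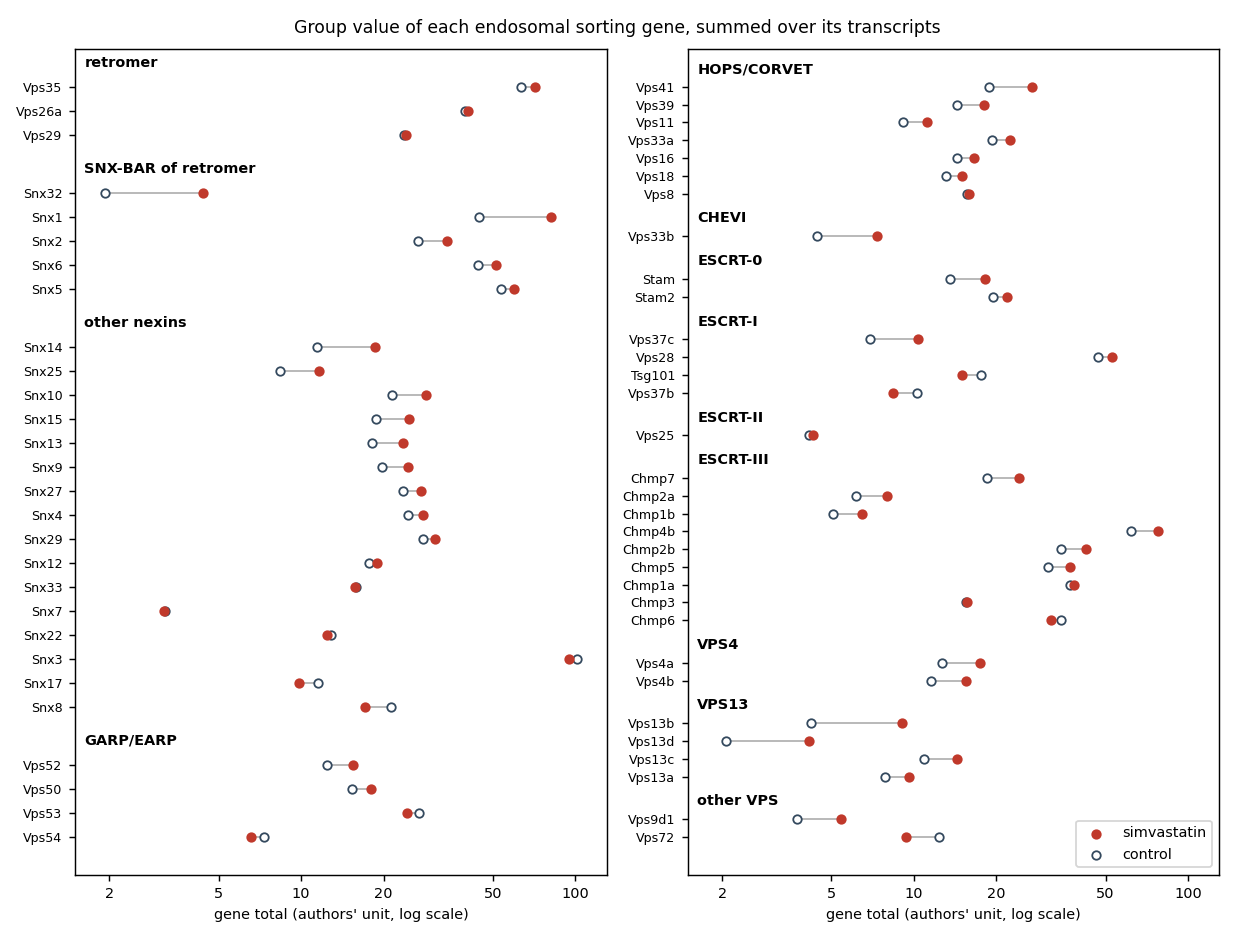
Total of each of the 60 genes with simvastatin (filled red) and in control (open), in the authors' unit on a log axis, with genes grouped by complex and ordered by ratio. Each point is 1 group value with no error, and 48 red points lie to the right of their control (55 if both groups are set to the same sum), the widest gaps being those of Snx32, Vps13b, Vps13d and Snx1.

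In gene totals the retromer core stood close to control. Vps35, the scaffold of the trimer, had a value of 71.2 with simvastatin and 63.2 in control (unadjusted p = 0.364, adjusted p = 0.668 in the authors' deposited table). Vps26a, an arrestin-like subunit that helps bind cargo, had a total of 40.5 with simvastatin and 39.5 in control. Vps29, which holds regulators of the complex, had a total of 24.2 with simvastatin and 23.8 in control. Its forms lay on opposite sides of control, as given below. The median log2 ratio of the 3 genes was 0.04, between 0.02 and 0.17, which is about that of all genes. Vps26b was not analysed here.

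The authors nevertheless called 1 transcript each of Vps26a and Vps29 higher, and both were minor forms of genes whose totals hardly differed. For Vps26a the called form had 2.40 with simvastatin and 0.40 in control (5.96-fold, adjusted p = 0.063 in the authors' deposited table), or 5.93% and 1.01% of the gene's total. The main Vps26a form had 38.1 with simvastatin and 39.1 in control, with an unadjusted p of 0.03 in the authors' deposited table although these values differ by little. For Vps29 the called form had 4.30 with simvastatin and 1.17 in control (3.68-fold, adjusted p = 0.149 in the authors' deposited table), or 17.8% and 4.92% of the total. Most of the Vps29 total, 71.0% with simvastatin and 92.5% in control, was assigned to a form that GENCODE annotates as a target of nonsense-mediated decay. The log2 ratios of the totals were 0.04 for Vps26a and 0.02 for Vps29.

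The 5 nexins that act with retromer, Snx1, Snx2, Snx5, Snx6 and Snx32, carry a BAR domain that bends the membrane into tubules, and the totals of all 5 were above control. Snx1, which pairs with Snx5 or Snx6, lies on chromosome 9 at 66088133 to 66126587 (GRCm38, minus strand, GENCODE M21). Its only listed transcript had 81.6 with simvastatin and 44.5 in control, 1.83-fold, with an adjusted p printed as 0.05 in the authors' deposited table. On which side of the threshold it lies is not known from the printed digits, and like all 38 transcripts printed at that value it was not counted. Snx32, a relative of Snx5 and Snx6, had 4.39 with simvastatin and 1.92 in control (2.29-fold, adjusted p printed as 0.05 in the authors' deposited table). Both were called higher by the authors.

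The other genes of this group had smaller differences. Snx2, a close relative of Snx1, had 34.1 with simvastatin and 26.6 in control (adjusted p = 0.32 in the authors' deposited table). Snx6 had 51.3 with simvastatin and 44.2 in control, and Snx5 had 59.8 with simvastatin and 53.4 in control, and in the authors' deposited table their unadjusted p was 0.743 and 0.428. The median log2 ratio of these 5 genes was 0.36, and that of the retromer core 0.04. Other nexins with a BAR domain, such as Snx8, are counted below. With 1 value per group the difference between these medians could not be tested.

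Snx12 held the 1 transcript past the threshold. Snx12 is a small nexin with little beyond its lipid-binding PX domain, a close relative of Snx3, and lies on chromosome X at 101097786 to 101222563 (GRCm38, minus strand). A less abundant coding form fell to 3.32 with simvastatin, against 5.22 in control (1.57-fold lower, adjusted p = 0.042 in the authors' deposited table). The other coding form had 15.6 with simvastatin and 12.4 in control, with an unadjusted p of 0.003 and an adjusted p of 0.07 in the authors' deposited table. The lower form thus made up 17.6% of the Snx12 total with simvastatin and 29.6% in control, while the total itself was 18.9 with simvastatin and 17.7 in control.

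**Figure D2:**
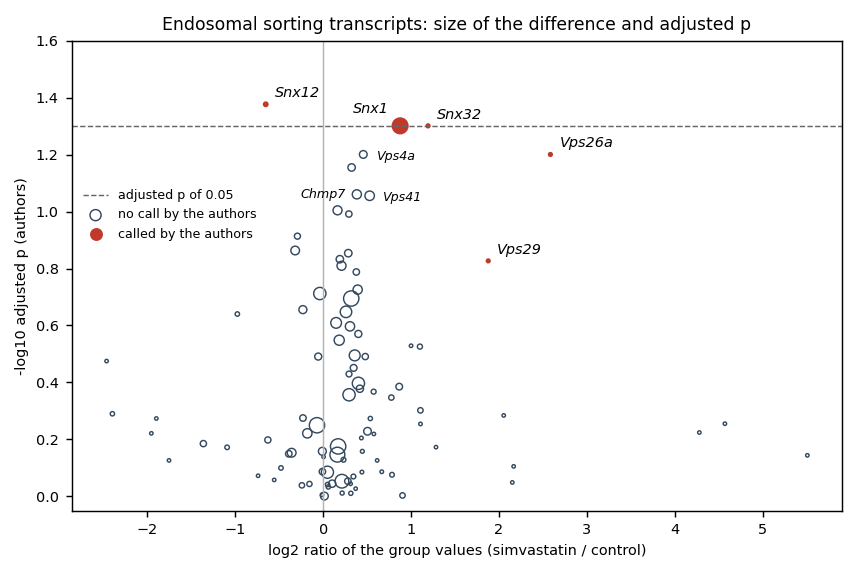
Log2 ratio of the group values (simvastatin over control) against -log10 of the authors' adjusted p for the 96 of 97 transcripts with values above 0 in both groups, with larger circles for larger summed values and filled red circles for the authors' calls. The Snx12 form at an adjusted p of 0.042 is the 1 point above the dashed line, Snx1 and Snx32 lie on it, and most of the points nearest below it are on the higher side.

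The other 16 nexins were mixed, with 10 totals above and 6 below control and a median log2 ratio of 0.17. Snx14, which links the endoplasmic reticulum to lipid droplets, had a total of 18.6 with simvastatin and 11.4 in control, and the smallest unadjusted p of its 3 transcripts was 0.17 in the authors' deposited table. Snx25, a relative of Snx14, had 11.6 with simvastatin and 8.35 in control. Snx15 had 24.7 with simvastatin and 18.8 in control (adjusted p = 0.188 in the authors' deposited table). Snx9, which acts with dynamin at clathrin-coated pits, had 24.4 with simvastatin and 19.8 in control (adjusted p = 0.253 in the authors' deposited table). None of these passed the threshold.

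On the lower side stood Snx8, a BAR nexin of endosome-to-Golgi transport, with 17.1 with simvastatin and 21.3 in control (unadjusted p = 0.015, adjusted p = 0.137 in the authors' deposited table). Snx17, which binds the tails of integrins and other surface proteins and recycles them, had 9.85 with simvastatin and 11.6 in control (adjusted p = 0.531 in the authors' deposited table). Snx3, which recruits retromer for the Wntless receptor, had 94.9 with simvastatin and 101 in control, a difference that turns round when both groups are set to the same sum. The same holds for Snx7, Snx22 and Snx33, whose log2 ratios were -0.01, -0.06 and -0.01. Snx27, a PDZ nexin that recycles cargo with retromer, had 27.3 with simvastatin and 23.5 in control. Snx4 and Snx29 had log2 ratios of 0.18 and 0.15.

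HOPS and CORVET share a core of VPS11, VPS16, VPS18 and VPS33A, to which HOPS adds VPS39 and VPS41 and CORVET adds VPS8. The totals of all 7 genes were above control, with a median log2 ratio of 0.21 and a range from 0.03 to 0.53, and their sum was 126 with simvastatin and 105 in control. At an unadjusted p under 0.05, 6 of the 12 transcripts listed were higher, from 6 of the 7 genes, and 1 was lower. The lower one was an assembled form of Vps8, another form of which was among the 6 higher. Over all transcripts the shares given above were 9.42% higher and 10.2% lower. The smallest adjusted p of the 12 was 0.088 in the authors' deposited table, so none passed the threshold.

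Vps41, the HOPS subunit that ties the tether to late endosomes, lies on chromosome 13 at 18717286 to 18866811 (GRCm38, plus strand) and had 27.0 with simvastatin and 18.7 in control (1.44-fold, unadjusted p = 0.006, adjusted p = 0.088 in the authors' deposited table). Vps11 had 11.2 with simvastatin and 9.12 in control (unadjusted p = 0.008, adjusted p = 0.102 in the authors' deposited table). Vps33a, an SM protein that guides SNARE pairing, had 22.3 with simvastatin and 19.3 in control (unadjusted p = 0.019, adjusted p = 0.155 in the authors' deposited table). Mutation of Vps33a is the basis of the buff coat colour mutant of the mouse. These differences were small in size, and their p-values lay close together.

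The main form of Vps16, which binds Vps33a within the complex, had 15.6 with simvastatin and 12.8 in control (unadjusted p = 0.016, adjusted p = 0.14 in the authors' deposited table). Vps18 had 14.9 with simvastatin and 13.1 in control, at an unadjusted p of 0.017 in the authors' deposited table. Vps8, the CORVET subunit, had 2 forms that pointed in opposite directions, so that its total was 15.9 with simvastatin and 15.6 in control. Its main coding form had 11.7 with simvastatin and 9.0 in control, and an assembled form had 3.34 with simvastatin and 6.57 in control. The unadjusted p was 0.021 for the first and 0.04 for the second in the authors' deposited table. Vps39 had a total of 18.01 with simvastatin and 14.4 in control, and none of its 3 transcripts had an unadjusted p under 0.05. Vps33b, a homologue of Vps33a in a separate tether, had 7.36 with simvastatin and 4.45 in control over 2 transcripts annotated as not coding, where the smaller unadjusted p was 0.221 in the authors' deposited table.

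The sequences before the start sites of 4 of these genes are given below, since Snx1 had the largest difference in value of the 60 genes and the others carry an element of interest in pigment cells. TCACGTGA is a palindromic form of the E-box that MITF and TFEB, related factors of melanocytes and of lysosomal genes, are known to bind. It was searched, with its wider core CACGTG and with TCACNCCAC, a form of the sterol regulatory element, on both strands of the 250 bases before each RefSeq start site (GRCm38.p6), for the 42 of 60 genes matched by symbol. Vps16, Vps33a and Vps26a held TCACGTGA, 3 of 42, against 133 of 6092 genes of the table (2.18%). CACGTG, which every TCACGTGA contains, was in 5 of 42 against 10.9% of table genes, and TCACNCCAC was in 1 of 42, that of Vps54, against 1.31%. The sequences run 5′ to 3′ on the strand of the gene up to the base before the RefSeq start, with TCACGTGA in capitals.
Vps16, chr2:130424070-130424319, plus strand: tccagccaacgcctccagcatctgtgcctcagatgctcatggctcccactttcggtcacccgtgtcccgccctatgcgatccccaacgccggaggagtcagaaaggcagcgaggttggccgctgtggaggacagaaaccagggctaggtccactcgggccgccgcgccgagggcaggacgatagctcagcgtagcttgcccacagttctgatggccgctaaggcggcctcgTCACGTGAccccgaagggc
Vps33a, chr5:123573016-123573265, minus strand: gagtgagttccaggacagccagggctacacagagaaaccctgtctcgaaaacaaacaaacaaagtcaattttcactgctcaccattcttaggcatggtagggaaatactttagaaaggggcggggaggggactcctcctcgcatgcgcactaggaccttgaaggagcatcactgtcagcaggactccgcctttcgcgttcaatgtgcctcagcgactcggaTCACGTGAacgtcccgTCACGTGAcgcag
Vps26a, chr10:62486806-62487055, minus strand: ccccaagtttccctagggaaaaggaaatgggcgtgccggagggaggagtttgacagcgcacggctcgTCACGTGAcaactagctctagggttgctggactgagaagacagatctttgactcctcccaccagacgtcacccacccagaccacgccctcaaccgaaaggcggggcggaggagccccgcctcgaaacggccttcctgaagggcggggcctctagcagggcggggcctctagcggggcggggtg
Snx1, chr9:66124887-66125136, minus strand: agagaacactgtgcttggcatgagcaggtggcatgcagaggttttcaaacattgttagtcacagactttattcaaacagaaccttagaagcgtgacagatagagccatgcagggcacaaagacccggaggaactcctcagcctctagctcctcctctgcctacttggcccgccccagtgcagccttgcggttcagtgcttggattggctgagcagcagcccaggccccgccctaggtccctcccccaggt
The element began 19 bases before the start in Vps16, 29 and 13 bases before it in Vps33a, and 183 bases before it in Vps26a, and these letters were not in the Snx1 window. In GENCODE the Vps33a gene starts at 123573038, within the window. The copy at 13 bases thus lies inside that gene, and the copy at 29 crosses its first base. The RefSeq start of Snx1 is also the first base of its listed transcript in GENCODE, and the window lies within an intron of a longer Snx1 transcript. Of the 5 HOPS and CORVET genes with a matched window, Vps16 and Vps33a held the element and 3 did not, and the totals of all 5 were above control. The log2 ratio of the total was 0.20 for Vps16, 0.21 for Vps33a and 0.04 for Vps26a. A match describes these letters and does not show that a factor was bound.

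The ESCRT genes were above control in 15 of 18 cases, with a median log2 ratio of 0.28 and a sum of 444 with simvastatin and 387 in control. None of their 27 transcripts passed the threshold or was called by the authors, and the smallest adjusted p was 0.063 in the authors' deposited table. Without adjustment, 5 were higher and 2 lower at p under 0.05, beside 9.42% higher and 10.2% lower of all transcripts. Among the nexins 15 of 21 totals were higher with a median of 0.21, so the ESCRT, nexin and HOPS/CORVET groups had similar medians. The retromer core, of 3 genes, alone of these 4 groups was near the median of all genes. Within ESCRT, ESCRT-I and the 1 gene of ESCRT-II were also near it, at -0.03 and 0.04. The medians of ESCRT-0, ESCRT-III and VPS4 were 0.29, 0.29 and 0.44. These are descriptions, and no difference between the groups could be tested.

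ESCRT-0 and ESCRT-I gather cargo, and 2 of 2 and 2 of 4 of their totals were above control. Stam2, a ubiquitin-binding partner of HGS, had 21.8 with simvastatin and 19.5 in control, with an unadjusted p of 0.007 and an adjusted p of 0.099 in the authors' deposited table. Its paralogue Stam had a total of 18.2 with simvastatin and 13.6 in control over 4 transcripts. These lay on both sides of control and are described below. Of ESCRT-I, Tsg101, which binds ubiquitin and viral late domains, had 15.0 with simvastatin and 17.6 in control (unadjusted p = 0.038, adjusted p = 0.221 in the authors' deposited table). Vps37b had 8.36 with simvastatin and 10.2 in control (unadjusted p = 0.012, adjusted p = 0.122 in the authors' deposited table). Both lay below control under either scaling of the groups.

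Its paralogue Vps37c had a total of 10.3 with simvastatin and 6.92 in control, and Vps28, the subunit that contacts ESCRT-II, had 52.6 with simvastatin and 46.9 in control. Vps37b and Vps37c are alternative subunits of the same complex, and they lay on opposite sides of control. Neither difference passed the threshold. Vps25 of ESCRT-II had 4.27 with simvastatin and 4.15 in control. Hgs, Vps36, Vps37a, Vps37d and Chmp4c were not analysed here.

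ESCRT-III proteins polymerise on the neck of the bud, and the VPS4 ATPases take the polymer apart. Of 9 ESCRT-III genes 8 totals were above control, with a median log2 ratio of 0.29. Chmp4b, the main polymer subunit, had 77.3 with simvastatin and 62.0 in control (1.25-fold, unadjusted p = 0.032, adjusted p = 0.202 in the authors' deposited table). Chmp7, which also acts in sealing the nuclear envelope, had 24.1 with simvastatin and 18.5 in control (1.30-fold, unadjusted p = 0.006, adjusted p = 0.087 in the authors' deposited table). Chmp5 had 37.0 with simvastatin and 30.9 in control, at an unadjusted p of 0.039 in the authors' deposited table. These 3 were the ESCRT-III genes with an unadjusted p under 0.05.

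Chmp2b, which with Chmp2a joins the polymer late, had 42.3 with simvastatin and 34.5 in control, and Chmp2a had 7.99 with simvastatin and 6.16 in control. Chmp1a and Chmp3 differed from control by 3.43% and 0.97%. Chmp1b has close copies in the genome, among which the authors' counting could have split reads, and had 6.45 with simvastatin and 5.08 in control. Chmp6, which starts the polymer on ESCRT-II, had 31.5 with simvastatin and 34.4 in control, a difference that turns round when both groups are set to the same sum. Both VPS4 genes were above control: Vps4a, on chromosome 8 at 107031222 to 107045755 (GRCm38, plus strand), had 17.4 with simvastatin and 12.7 in control (1.37-fold, unadjusted p = 0.003, adjusted p = 0.063 in the authors' deposited table), and Vps4b had 15.4 with simvastatin and 11.6 in control (adjusted p = 0.419 in the authors' deposited table). Neither passed the threshold.

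**Figure D3:**
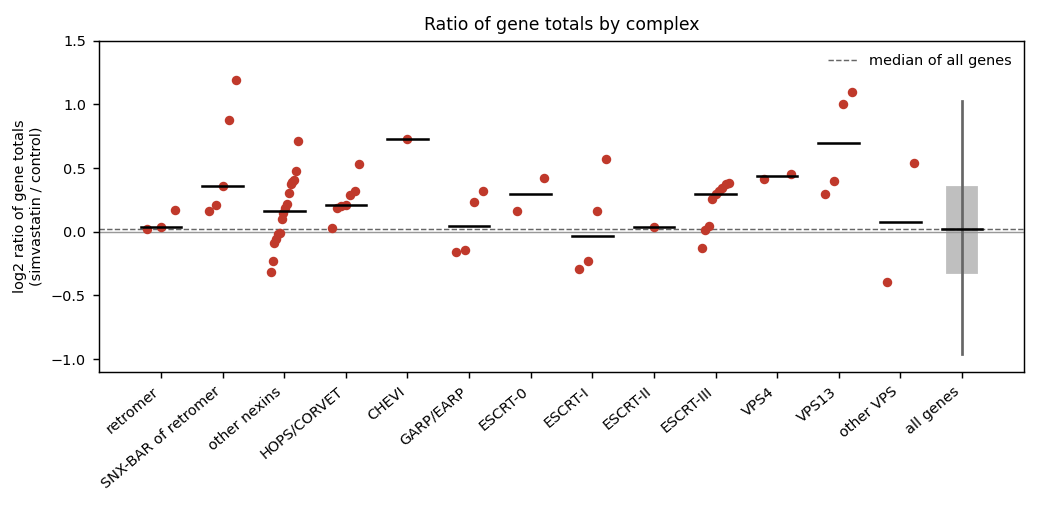
Log2 ratio of gene totals (simvastatin over control) for each gene as a point, by complex, with the median of each complex as a bar. The last column gives all 8505 genes as the median, the 25th to 75th percentile (box) and the 5th to 95th percentile (line), and every complex but ESCRT-I has a median above the dashed median of all genes of 0.02.

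The VPS13 proteins are long rods that carry lipids between membranes in contact. All 4 of their genes were above control, with a median log2 ratio of 0.70. Vps13b, whose human gene is mutated in Cohen syndrome, had 9.05 with simvastatin and 4.22 in control (2.15-fold, unadjusted p = 0.064, adjusted p = 0.298 in the authors' deposited table). Vps13d had 4.14 with simvastatin and 2.07 in control (2.00-fold, unadjusted p = 0.063, adjusted p = 0.296 in the authors' deposited table). Vps13c had 14.4 with simvastatin and 10.9 in control, and Vps13a had 9.59 with simvastatin and 7.82 in control. The ratios of Vps13b and Vps13d were the highest among all 60 genes after that of Snx32, but neither passed even without adjustment. Both had low mean totals, 6.6 for Vps13b and 3.1 for Vps13d. Gene length in GENCODE and log2 ratio had a Spearman rho of 0.27 over 8428 genes of the table and 0.17 over the 60. The part of length in the VPS13 ratios was not tested.

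GARP, which tethers vesicles from endosomes to the Golgi, and its relative EARP gave 2 totals on each side of control, with a median log2 ratio of 0.04. Vps52, shared by both complexes, had 15.5 with simvastatin and 12.4 in control, and Vps50, the EARP subunit, had 18.03 with simvastatin and 15.3 in control. Vps54, the GARP subunit, had 6.57 with simvastatin and 7.32 in control. Vps53 had 24.2 with simvastatin and 26.8 in control, and the differences of both Vps53 and Vps54 turn round when the groups are set to the same sum. The smallest adjusted p of the 11 transcripts was 0.513 in the authors' deposited table. Of the 2 genes outside the endosomal roles, Vps72 had 9.39 with simvastatin and 12.3 in control and Vps9d1 had 5.44 with simvastatin and 3.75 in control.

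Of the 60 genes, 21 had more than 1 transcript in the table and 12 had forms in opposite directions, counting forms with a mean value of at least 1 and above 0 in both groups. How many genes of the whole table have such forms was not counted, so the 12 cannot be read as particular to endosomal sorting. In Vps53 a coding form had 17.4 with simvastatin and 12.3 in control, while a form annotated as a target of nonsense-mediated decay had 1.53 with simvastatin and 8.06 in control, or 6.31% and 30.1% of the total. Vps39 showed the same arrangement, with a coding form at 14.6 with simvastatin and 8.02 in control and a form annotated as a processed transcript at 0.66 with simvastatin and 3.64 in control. In both genes the forms that GENCODE does not annotate as coding made up less of the total with simvastatin. In the authors' deposited table these lower forms had an unadjusted p of 0.18 in Vps53 and 0.08 in Vps39, so neither difference passed a test.

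In Stam the form annotated as a decay target had 9.74 with simvastatin and 5.21 in control, while 1 coding form had 3.33 with simvastatin and 7.10 in control. The first of these has an unadjusted p of 0.985 in the authors' deposited table despite its 1.87-fold difference. The lower coding form made up 18.3% of the Stam total with simvastatin and 52.3% in control. The other coding form of Stam had 2.80 with simvastatin and 1.15 in control. An assembled Stam form had 2.33 with simvastatin and 0.12 in control. Snx10, known for its role in osteoclasts, had 5 forms, of which the one with most signal in control had 5.55 with simvastatin and 14.3 in control. An assembled Snx10 form had 9.42 with simvastatin and is listed at 0 in control. Its deposited fold of 3359 rests on a control value that prints as 0, and so is no measure of size. Snx13 had an assembled form at 2.85 with simvastatin and 0.12 in control. The unadjusted p-values of all transcripts of Stam, Snx10 and Snx13 were above 0.1 in the authors' deposited table.

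**Figure D4:**
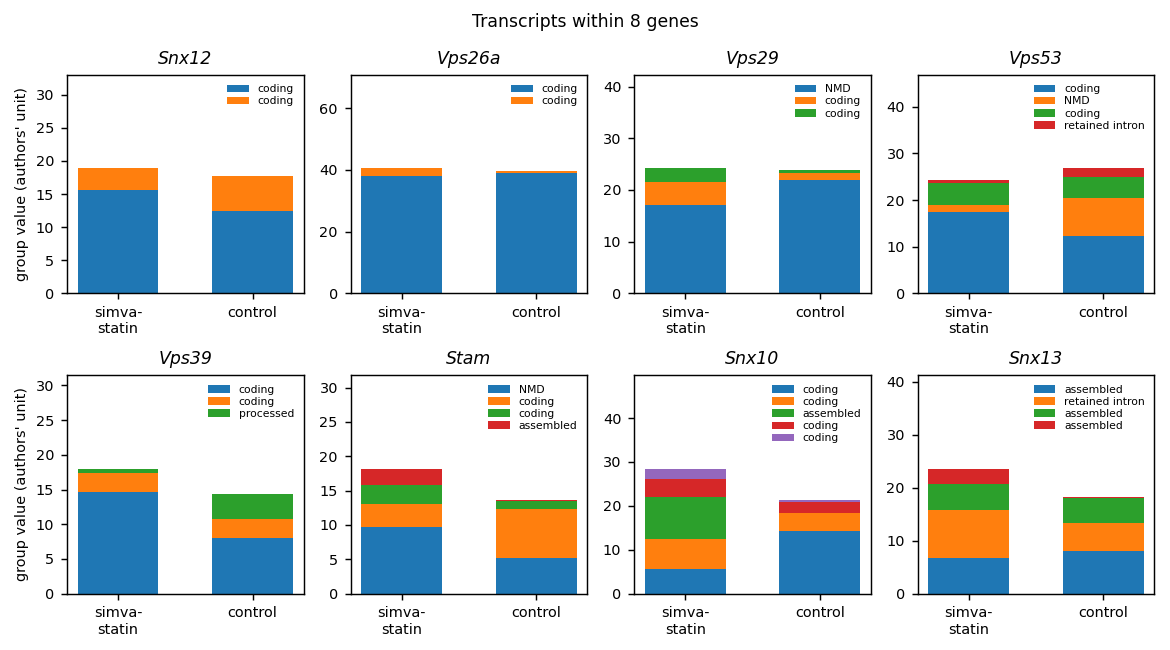
Authors' group values of every listed transcript of 8 genes, stacked to the gene total, with simvastatin left of control and each colour 1 transcript (legend: coding, target of nonsense-mediated decay (NMD), retained intron, processed transcript, or assembled from reads). The bars are values without error, and totals differ less between the groups than the parts do. In Vps53 the decay target is 6.31% of the total with simvastatin and 30.1% in control. All 8 genes are among those with forms in opposite directions, so they do not stand for the other genes.

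Genes that work with these complexes but carry other names were read from 5 lists. The 4 lists of machinery held 43 analysed genes, of which 33 had totals above control and 10 below, with a median log2 ratio of 0.24 that lies beside the 0.22 of the 60. Of their 85 transcripts none passed the threshold on the authors' adjusted p. Without adjustment, 10 of the 85 were higher and 1 lower at p under 0.05, beside 9.42% higher and 10.2% lower of all transcripts. The higher count was thus near the share over the table, and the lower count was below it. ESCRT partners had a median log2 ratio of 0.20 over 10 genes, and Mvb12a of ESCRT-I had 54.8 with simvastatin and 54.9 in control. Tether and phosphoinositide kinase partners had a median of 0.44 over 7 genes, 5 above control and 2 below. None of their 20 transcripts had an unadjusted p under 0.05 in the authors' deposited table. Becn1, a subunit of the class III kinase, had a total of 30.2 with simvastatin and 21.4 in control. Most of that difference lay in 1 form, at 15.6 with simvastatin and 7.39 in control (unadjusted p = 0.337 in the authors' deposited table). The WASH and Commander list, which drives actin on endosomes and recycles surface proteins, had a median of 0.15 over 17 genes, with Washc5 at 52.9 with simvastatin and 40.2 in control. The 9 endosomal SNARE and tether genes were all above control with a median of 0.34, among them Stx7 with 92.6 with simvastatin and 74.4 in control.

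Vps35l, the retriever relative of Vps35, is listed in the table under the older symbol 9030624J02Rik and so was not matched by the rule. It had 19.9 with simvastatin and 12.9 in control (1.55-fold, unadjusted p = 0.024, adjusted p = 0.173 in the authors' deposited table) and was called higher by the authors. It was named after its values were seen. In the WASH and Commander list, to which it belongs, 12 totals were above control and 5 below. Dscr3 of that list had 39.4 with simvastatin and 38.8 in control (unadjusted p = 0.518 in the authors' deposited table). Ccdc22 was lower, with 11.4 with simvastatin and 14.05 in control (unadjusted p = 0.02, adjusted p = 0.159 in the authors' deposited table). Retriever works with Snx17, whose total lay below control as given above.

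Of 10 receptors and transporters that these complexes sort, 6 had totals above and 4 below control. The 4 below were Igf2r, M6pr, Tfrc and Slc2a1, with log2 ratios of -0.45, -0.25, -0.21 and -0.19. Igf2r had only 1 listed form, with low values of 3.16 with simvastatin and 4.31 in control. M6pr was below control through 1 assembled form, at 5.59 with simvastatin and 17.2 in control, while its other forms were above control. Itgb1, an integrin that Snx17 recycles, rose to 166 with simvastatin, against 139 in control (1.19-fold, adjusted p = 0.042 in the authors' deposited table). Cd63, a tetraspanin of late endosomes and melanosomes, had a total of 362 with simvastatin and 330 in control. Of the 22 cargo transcripts, 6 were higher and 0 lower at an unadjusted p under 0.05, beside 9.42% higher and 10.2% lower of all transcripts.

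The authors' enrichment of their called genes, made with DAVID, listed the 4 higher members under endosome and under endocytosis. The endosome term held 68 genes with 3.46-fold enrichment (adjusted p = 9.72e-17 in the authors' deposited table of terms), and 4 of the 68, namely Snx1, Snx32, Vps26a and Vps29, were among the 60 genes here. The endocytosis pathway held 24 genes with 2.15-fold enrichment (adjusted p = 0.0234 in the authors' deposited table of terms), with the same 4 members. These terms rest on the same comparison and calls, and so are not separate evidence. For Vps26a and Vps29 the membership comes from the minor transcripts described above.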

How the data were processed

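RNA of 6 B16.F10 samples was sequenced, 3 given 3.5 µM simvastatin for 24 h and 3 untreated, grouped here by title. Libraries from total RNA kept the strand, per the labels' protocols. HISAT2 2.0.5 and StringTie on GRCm38 (mm10) are named in the submitters' processing notes, and no source used here gives the counting, the filter or the test. The deposited table holds 1 expression signal per group and transcript, made by the authors in an unstated unit. The deposited fold is a signed linear score, negative where simvastatin is lower. The authors' p-values and adjusted p-values are printed to 3 decimals. No p-value was recomputed here, because no value per sample was used, so the rule fixed for that case was followed, and calls are the authors' adjusted p under 0.05 over all 15905 transcripts. The labels call the samples biological replicates but do not describe separate cultures, so the p-values may measure technical spread alone. Enrichment terms with their gene counts and fold enrichment are the authors' own, from DAVID per the file headers, and further deposited tables were not analysed here. From the signals, gene totals, log2 ratios and shares of totals were computed (Python 3.11.15, pandas 2.3.3), and the summing was tested on simulated data. GENCODE M21 (GRCm38) gave transcript types and coordinates for all 60 genes. A total that mixes transcripts assigned by estimation inherits the error of that assignment, which is unknown.

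The members, the 14 lists of complexes, the 5 lists of partners and the tests were chosen with earlier results of these data known. Genes were named by rule: every member past the threshold, and per complex the gene of highest mean and those of largest and smallest ratio among genes with a mean total of at least 5, the 5 with the widest opposite transcripts, and, per partner list, the gene of highest mean and any past the threshold. The other members were added to account for all 60, and the promoter sequences, from RefSeq, were chosen after the values were seen. Cargo genes below control were named outside the rule, to give that side too. A result that the rule names among the partner lists is not reported here. Alternatives were a threshold of 0.1, the authors' call, unadjusted p-values, minimum values, a pseudocount of 1, equal group sums, Ensembl transcripts only and the most abundant transcript.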

Additional observations from a re-analysis of the deposited data

How the results depend on the processing

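No paired analysis was possible because only 1 value per group was used, although the replicate numbers are shared by the groups, and for the same reason no sample could be left out. The counts of calls depended on the threshold: against 0 higher and 1 lower, the counts were 8 and 1 at an adjusted p under 0.1, 4 and 1 by the authors' call, and 19 and 6 at an unadjusted p under 0.05. Leaving out transcripts with a mean under 1, or assembled ones, gave the same counts. With both groups set to the same sum, which adds 0.20 to every log2 ratio and takes the median of all genes to 0.22, the median became 0.42 for the 60 genes, 0.23 for retromer, 0.41 for HOPS/CORVET, 0.47 for ESCRT and 0.41 for nexins, and 7 of the 12 lower totals came out above control. With the most abundant transcript in place of the total, the retromer median was -0.038, since the minor forms of Vps26a and Vps29 were then left out. The other group medians stayed within 1.5 times of the main value under the remaining settings. For single named genes, 132 of 172 values kept their sign within 1.5 times, and 40 did not. Depth and the spread between samples are unknown, so small ratios cannot be told apart from sampling error.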
